A study of Mus musculus with 9 samples.

Results

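The transcripts described here code for proteins that the hepatocyte makes in bulk, most of them for secretion into blood plasma. They are the 9 genes Alb, Ttr, Trf, Apoa1, Apoa2, Fgb, Ahsg, Ambp and Fabp1, taken as a named list and found on the array by gene symbol. They had 11 of the 45281 gene probes, and 9 of the 30869 symbols, on the Illumina MouseWG-6 v2.0 bead array. Of these, 8 probes for 6 genes passed the detection filter, which required 3 or more arrays to have a detection p below 0.05 for the probe. The 3 other genes, Alb, Fgb and Fabp1, had 1 probe each, were detected on no array and could not be tested.

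The samples were sorted, activated hepatic stellate cells (aHSCs, the scar-forming cells of injured liver) from mice of genotype WT1GFP/+, labelled as male C57/Bl6 in every group, although the study's methods name both sexes for culture work. In these mice green fluorescent protein (GFP) reports expression from the WT1 locus, and 1 WT1 allele carries the reporter in every group, the WT1-negative group included. WT1-high (GFP high) and WT1-intermediate (GFP low) cells were sorted from livers chronically injured by carbon tetrachloride given into the peritoneum, with 3 arrays per group. WT1-negative (GFP negative) cells were sorted after 7 days of activation on plastic, also with 3 arrays, so liver or culture origin and WT1 status cannot be told apart. All cells had first been enriched by density centrifugation, and per the methods 3 animals gave the in vivo arrays. The methods define replicates in culture as separate isolations of cells, while the labels do not tie the cultured samples to animals. Arrays are named by group and label number.

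Hepatocytes release albumin, transport proteins, apolipoproteins, clotting factors and fetuin, and their genes are switched on together by liver-enriched factors such as HNF4A, FOXA and C/EBP alpha. Hepatocytes form most of the liver's mass, whereas stellate cells are not known for making these proteins in quantity. Transferrin is an exception in the list, since several other cell types make it too.

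Base composition set the undetected probes apart from the others, and for that reason the first 30 bases of 10 of the 11 probes are shown, 5′ to 3′, with G and C in capitals. The Ttr probe ILMN_2443330, with 48% GC, is named only. The sequences are those of the deposited probe tables.
Alb ILMN_2651160: GGtGtaaaatCaaCaCCCtaaGGaaCaCaa
Fgb ILMN_1218075: ttaCattatGttattGGaattttCtttGat
Fabp1 ILMN_2728928: atatttCatattCttttaCaGtGtaaaatt
Trf ILMN_2485323: CtGGGGtaGaCaGaaCCGCtGGttGGaaCa
Apoa1 ILMN_2623393: taCCaCaCCaGGGCCaaaaCCCaCCtGaaG
Apoa2 ILMN_1247156: aCtGttCCtaGGCCataGtCtGCCatCatG
Apoa2 ILMN_2775957: GGCaGaCGGaCCGGatatGCaGaGCCtGtt
Ahsg ILMN_2993745: CCCaCtGaCCtCatataaaaCaGttGCaaC
Ahsg ILMN_2764036: ttCaGaCCaCCGaaCttaCCaCGaCCtaCG
Ambp ILMN_2904137: GaaCtaataCGCaGttGaaGGtGCCaGtCt
Over its full 50 bases, the Alb probe held 32% G and C, the Fgb probe 24% and the Fabp1 probe 18%. The 8 probes that passed the filter held between 48% and 58%. The longest run shared by the Apoa2 probes was 6 bases and that shared by the Ahsg probes 8 bases, so each pair reads separate stretches of its transcript.

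The same split was present across the array. Of 1784 gene probes with at most 32% GC, 62 (3.5%) were detected on at least 3 arrays, compared with 15589 of 31693 (49.2%) at 48% to 58% GC. In 617 genes that had a probe in both classes, 25 of 648 low-GC probes (3.9%) and 554 of 985 others (56.2%) were so detected. The 8 low-GC probes of other hepatocyte genes, among them Otc, Pck1, Pzp and Slc2a2, all failed the filter. Otc, Pck1 and Slc2a2 also failed it on their probes of higher GC (38%, 42% and 50% to 56%), as did Slco1b2 (40% and 48%). Pzp had no other probe. The part of base composition in the lack of signal from the Alb, Fgb and Fabp1 probes was not tested.

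**Figure D1:**
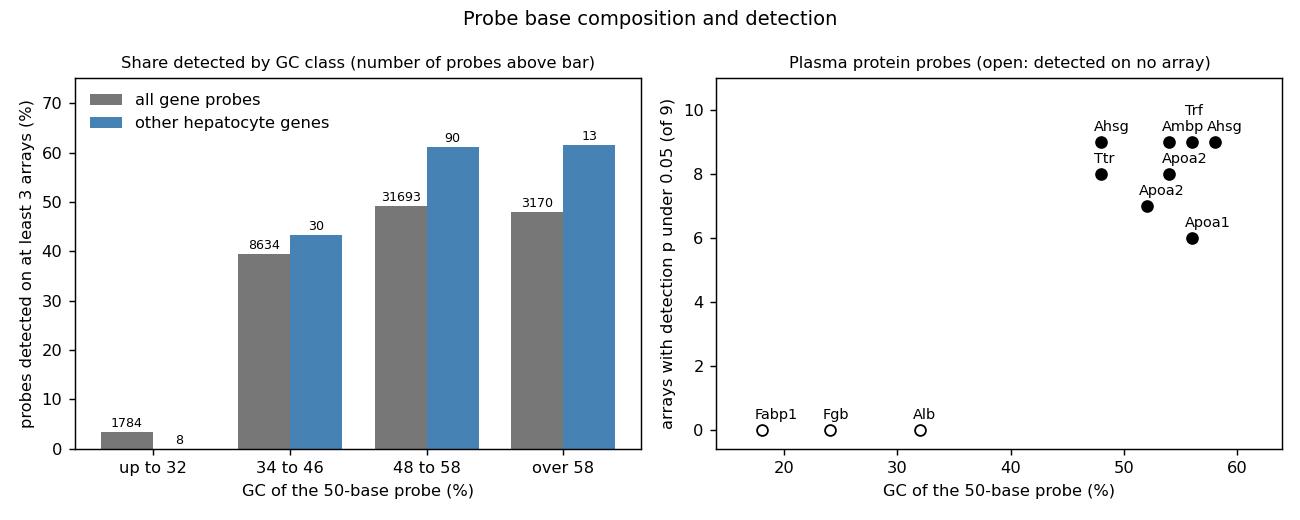
Left, share of probes (%) detected on at least 3 of 9 arrays, by GC content of the probe, for all gene probes and for probes of 85 other hepatocyte genes, with the number of probes above each bar. Right, number of arrays on which each of the 11 plasma protein probes was detected against its GC content (%). Alb, Fgb and Fabp1 sit at 32% GC or lower with 0 arrays, and the other 8 probes at 48% to 58% with 6 to 9 arrays.

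Mean signal per array lay between 147 and 289, median negative control signal between 76.3 and 93.6, and 38.1% to 43.7% of gene probes were detected per array. The labelled cell type was checked against its markers. Of 10 stellate markers, Lrat was detected on 1 array and Rgs5 on none, whereas Dcn, Des, Colec11 and 5 others passed the filter. All 8 mesothelial markers were called higher in both in vivo groups than in WT1-negative cells, with a summed level (normalised signal on the linear scale, 1 probe per gene) of 16553 to 33341 in vivo and 186 to 235 in culture. The 10 stellate markers summed to 10068 to 14725 in vivo and 2013 to 3433 in culture, where Colec11 and Hand2 were undetected. Of the 8 tested, 3 were called higher and 3 lower for WT1-high cells against culture, and 3 and 2 for WT1-intermediate cells. The 10 macrophage markers summed to 2668 to 5477 in WT1-high, 11309 to 17409 in WT1-intermediate and 39904 to 45006 in WT1-negative arrays, with 8 or 9 of them detected on each array and Cd5l on none. Below, levels are background-corrected, quantile-normalised log2 signals, on which the undetected members lay between 4.16 and 4.36, and levels of different probes are not compared. In bulk RNA, fewer cells of a type and less RNA per cell cannot be told apart.

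In outline, 5 of the 6 measurable genes were higher in WT1-high aHSCs than in WT1-negative aHSCs from culture, and 4 were higher in WT1-intermediate aHSCs. None was called between the WT1-positive populations. Ttr and Apoa2 showed the largest measured differences, Ahsg smaller ones and Trf a small one. Apoa1, undetected in culture, gave lower bounds only, and no Ambp difference passed the test. The in vivo arrays of 1 group differed widely from each other in all of these genes but Trf. The plot of levels by array gives each value.

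**Figure D2:**
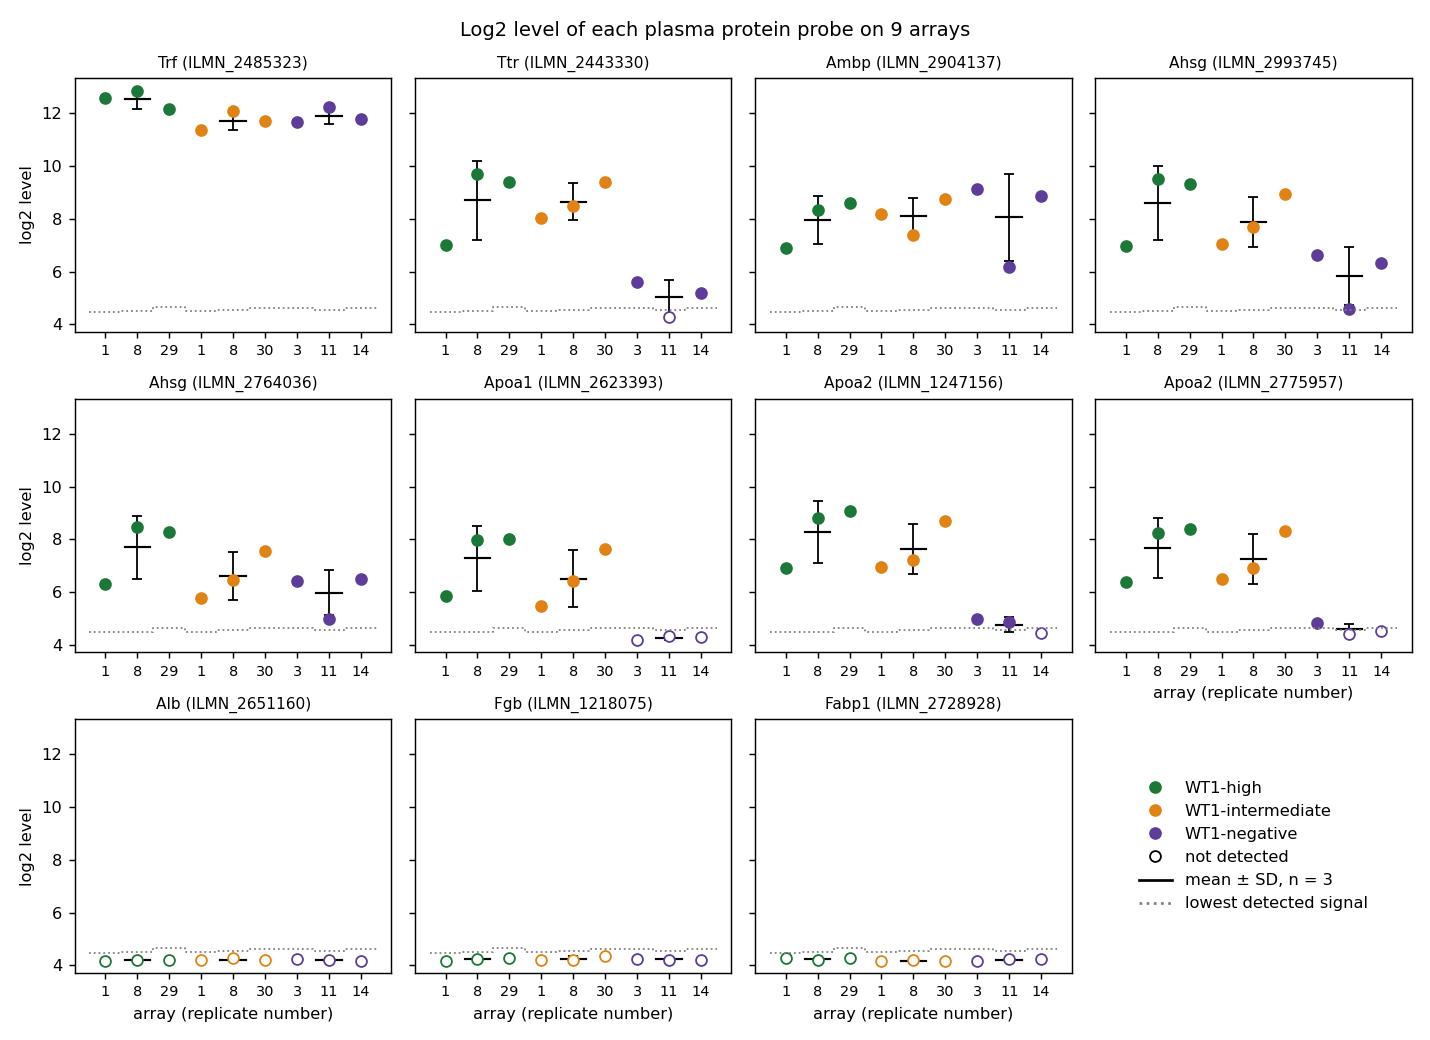
Log2 level of the 11 plasma protein probes on 9 arrays, named by replicate number, with group mean and SD (n = 3) in black, open symbols for undetected probes and a dotted line at the lowest detected signal of each array. Ttr, Apoa1 and Apoa2 lie above the WT1-negative arrays in every in vivo array, while Alb, Fgb and Fabp1 lie below the dotted line throughout.

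Among the carrier proteins, albumin, the main plasma protein and carrier of fatty acids, had no measurable signal. The Alb probe (gene on chromosome 5, 90460870-90476602, GRCm38.p6) gave intensities of 74.7 to 92.2 over the 9 arrays, with detection p-values of 0.45 to 0.96. These lay at the level of the negative controls in each group.

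Ttr codes for transthyretin, which carries thyroid hormone and retinol-binding protein. Its log2 level was 6.99, 9.70 and 9.41 in WT1-high arrays 1, 8 and 29, and 8.04, 8.49 and 9.41 in WT1-intermediate arrays 1, 8 and 30. It was 5.60, 4.28 and 5.17 in WT1-negative arrays 3, 11 and 14, undetected on array 11. All in vivo arrays lay above all cultured ones, while the in vivo groups overlapped. The difference from WT1-negative cells was 3.68 ± 0.63 (SE; 12.8-fold; limma, Benjamini-Hochberg adjusted p = 4e-04) in the WT1-high group and 3.63 ± 0.63 (12.4-fold; adjusted p = 0.00048) in the WT1-intermediate group.

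Trf codes for transferrin, the iron carrier of plasma (gene on chromosome 9, 103208876-103230286). Its level was 12.57, 12.86 and 12.15 in WT1-high, 11.36, 12.10 and 11.70 in WT1-intermediate, and 11.68, 12.22 and 11.77 in WT1-negative arrays, in the same array order. It was therefore strong in all groups, cultured cells included. All WT1-high arrays lay above all WT1-intermediate ones, but the lowest WT1-high array lay below the highest WT1-negative one. Trf was higher in WT1-high than in WT1-negative cells by 0.64 ± 0.24 (1.56-fold; limma, Benjamini-Hochberg adjusted p = 0.037). This call was lost without array 1 or 8 of the WT1-high group (adjusted p = 0.084 and 0.13) or without array 3 or 14 of the WT1-negative group (0.12 and 0.1). WT1-intermediate and WT1-negative cells differed by -0.17 ± 0.24 (adjusted p = 0.56; limma, Benjamini-Hochberg).

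The apolipoproteins Apoa1 and Apoa2 are the chief proteins of high-density lipoprotein. Apoa1 (chromosome 9, 46228630-46230469) read 5.86, 7.97 and 8.03 on the WT1-high arrays and 5.47, 6.42 and 7.64 on the WT1-intermediate arrays. In WT1-negative arrays it was 4.19, 4.33 and 4.31 and was detected on none. All in vivo arrays lay above the cultured ones. Against the lowest detected signal of the cultured arrays, the WT1-high signal of Apoa1 was at least 6.42-fold higher and the WT1-intermediate signal at least 3.75-fold higher. The fit gave adjusted p = 0.00097 and 0.0065 (limma, Benjamini-Hochberg).

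Apoa2 (chromosome 1, 171221564-171226379) behaved like Apoa1 but kept a trace of signal in culture. Probe ILMN_1247156 read 6.92, 8.81 and 9.07 in WT1-high, 6.95, 7.23 and 8.71 in WT1-intermediate, and 4.97, 4.87 and 4.45 in WT1-negative arrays, undetected on array 14. The second probe, ILMN_2775957, read 6.38, 8.25 and 8.40, then 6.51, 6.92 and 8.32, then 4.83, 4.42 and 4.53, and was detected on array 3 alone of the cultured arrays. Neither probe overlapped between in vivo and cultured arrays. The differences from WT1-negative cells were 3.51 ± 0.54 and 3.08 ± 0.53 for WT1-high (limma, Benjamini-Hochberg adjusted p = 0.00021 and 0.00042). For WT1-intermediate cells they were 2.87 ± 0.54 and 2.66 ± 0.53 (adjusted p = 0.00091 and 0.0012), so both probes gave the same calls.

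Fgb codes for the beta chain of fibrinogen, the clot-forming protein, which is assembled from alpha, beta and gamma chains. Its probe gave intensities of 76.4 to 92.5, with detection p-values of 0.21 to 0.87, and was undetected throughout. The other chains, Fga and Fgg, were detected on all 9 arrays. Fgg read 5.43, 7.90 and 7.85 on the WT1-high arrays, 5.64, 6.20 and 7.31 on the WT1-intermediate arrays and 5.46, 4.63 and 5.30 on those from culture. Its WT1-high level exceeded the cultured one by 1.93 (limma, Benjamini-Hochberg adjusted p = 0.017), and the cultured array 3 lay above WT1-high array 1. Fgg was not called for WT1-intermediate cells against culture (1.25, limma adjusted p = 0.096), nor was Fga for either liver group (1.50 and 0.42, limma adjusted p = 0.065 and 0.59).

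Ahsg codes for fetuin-A, a plasma glycoprotein that binds calcium phosphate (chromosome 16, 22892015-22899451). Probe ILMN_2993745 read 6.98, 9.50 and 9.33 in WT1-high, 7.06, 7.67 and 8.93 in WT1-intermediate, and 6.61, 4.58 and 6.32 in WT1-negative arrays. Probe ILMN_2764036 read 6.32, 8.48 and 8.28, then 5.79, 6.44 and 7.57, then 6.43, 4.98 and 6.50. Ahsg was thus detected on all 9 arrays by both probes, lowest in cultured array 11. By the first probe the in vivo and cultured arrays did not overlap, whereas by the second cultured arrays 3 and 14 lay above array 1 of each in vivo group.

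The tests of the Ahsg probes diverged in the same way. The first exceeded its level in culture by 2.77 ± 0.71 in WT1-high cells and by 2.05 ± 0.71 in the WT1-intermediate group (limma, Benjamini-Hochberg adjusted p = 0.0059 and 0.028). The second was higher by 1.73 ± 0.61 in WT1-high cells (adjusted p = 0.029), and the difference of 0.63 ± 0.61 for WT1-intermediate cells was not called (adjusted p = 0.39). The call of the first probe in WT1-intermediate cells was lost without WT1-intermediate array 8 or 30 or WT1-negative array 11 (differences of 2.17, 1.55 and 1.42, limma adjusted p = 0.05, 0.1 and 0.11). It was also lost under median scaling (1.46, limma adjusted p = 0.1), without background correction (1.12, adjusted p = 0.1), with offset 50 (1.53, adjusted p = 0.067) and without a filter (2.05, adjusted p = 0.12). That of the second probe in WT1-high cells was lost without WT1-high array 8 or 29 or WT1-negative array 11 (differences of 1.32, 1.43 and 1.23, limma adjusted p = 0.11, 0.092 and 0.12), and also without background correction (0.98, adjusted p = 0.055) or a filter (1.73, adjusted p = 0.13).

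Ambp codes for a precursor that is cut into alpha-1-microglobulin, a heme-binding protein, and bikunin, a protease inhibitor (chromosome 4, 63143275-63154172). It read 6.90, 8.34 and 8.58 in WT1-high, 8.19, 7.40 and 8.74 in WT1-intermediate, and 9.14, 6.16 and 8.85 in WT1-negative arrays. Cultured arrays 3 and 14 gave the highest values of all and array 11 the lowest, so the in vivo values lay within the range of the cultured ones. The differences were -0.17 ± 0.70 between WT1-high and WT1-intermediate, -0.11 ± 0.70 between WT1-high and WT1-negative, and 0.06 ± 0.70 for WT1-intermediate against culture (limma, Benjamini-Hochberg adjusted p = 0.93, 0.9 and 0.95). The confidence interval of the second ran from -1.65 to 1.43, so a fall or rise within these limits remained compatible with the data from 3 arrays per group.

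Fabp1 codes for the liver fatty acid-binding protein, which stays inside the cell. Its probe (chromosome 6, 71199879-71205034) gave intensities of 73.5 to 92.7 and detection p-values of 0.41 to 0.96, and no array detected it.

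For WT1-high against WT1-negative cells, 5 of the 6 tested genes were called, all higher, where 59.6% of all 20573 tested probes were called and 26.5% were called higher. For WT1-intermediate against WT1-negative cells 4 of 6 were called, all higher, beside 58% of all tested probes called and 24.5% called higher. The groups did not overlap in 4 of 6 genes in each of these comparisons, beside 68.4% and 65.5% of all tested probes. The median difference over the 6 genes was 2.89 and 2.14 (2.73 and 1.98 with Apoa1 at its lower bound), beside medians over all tested probes of -0.10 and -0.13. Apoa1 passed the filter through its in vivo arrays alone, so these counts and medians describe the genes that passed and not all 9. The cultured arrays enter both comparisons, which are therefore not independent.

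For WT1-high against WT1-intermediate cells, 0 of 6 genes were called by limma, beside 3.56% of all tested probes called and 0.904% called higher in WT1-high cells, and 1 of 8 probes, that of Trf, had an unadjusted p under 0.05. The median difference over the 6 genes was 0.68, beside 0.05 over all tested probes, and 5 of 6 genes were higher in WT1-high cells. For Ttr the difference was 0.05 (confidence interval -1.32 to 1.43), for Apoa1 0.77 (-0.50 to 2.05) and for Apoa2 0.64 (-0.56 to 1.83), so these data do not place the groups closer than those limits. For Trf it was 0.81 ± 0.24 (confidence interval 0.29 to 1.33; limma, Benjamini-Hochberg adjusted p = 0.095), and Trf was the gene among 6 whose groups did not overlap, beside 20.1% of all tested probes. With a replicate block the Trf difference was called at 0.81 (adjusted p = 0.03, limma with a fixed block, arrays 29 and 30 taken as a pair). It was also called at 0.86 (adjusted p = 0.021, limma with a random replicate block, 29 and 30 unpaired). A fixed block on numbers 1 and 8 only did not give the call (0.99, limma adjusted p = 0.055).

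**Figure D3:**
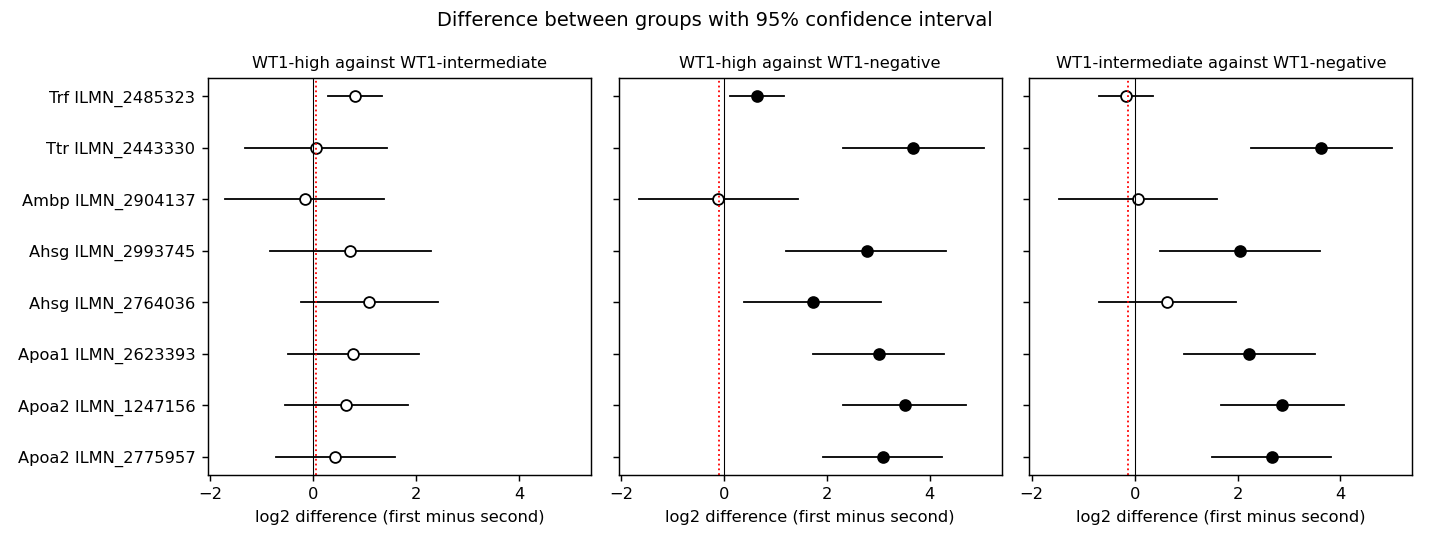
Log2 difference with its 95% confidence interval (limma) for the 8 tested probes in 3 comparisons, filled where called, with a dotted red line at the median of all tested probes. Intervals of Ttr, Apoa1 and Apoa2 lie wholly above 0 against WT1-negative cells, and Ambp's interval includes 0 in all comparisons. Apoa1 was undetected in WT1-negative cells, so its fitted differences there are not measured folds.

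Pair by pair, WT1-high minus WT1-intermediate was 1.21, 0.76 and 0.45 for Trf in the pairs numbered 1, 8 and 29 with 30. That 29 and 30 share an animal is an assumption. For Apoa1 it was 0.39, 1.54 and 0.39, higher in the WT1-high array of each pair. For Ttr the pairs gave -1.05, 1.21 and 0.00, for Ahsg by probe ILMN_2993745 -0.08, 1.84 and 0.40, and for Ambp -1.30, 0.94 and -0.16, so for these probes the pairs disagreed in direction. By the other Ahsg probe, ILMN_2764036, the pairs gave 0.53, 2.04 and 0.71, all higher in the WT1-high array. The largest of these differences came from the pair numbered 8 in Apoa1, Apoa2 and Ahsg, and its WT1-high array was also among the highest of all.

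Spread within groups was wide for these genes. The SD over 3 WT1-high arrays was 1.49 for Ttr, 1.23 for Apoa1 and 1.41 for Ahsg by probe ILMN_2993745, beside a median SD of 0.20 over all tested probes. At least 99.8% of tested probes had a smaller SD than each of these. The SD of Trf, 0.36, was nearer the rest, with 82.9% of tested probes below it. In WT1-negative cells Ambp had an SD of 1.64 and Ahsg one of 1.10, again above 99.8% of tested probes or more, whereas the undetected Apoa1 had 0.07.

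The spread had a common order. The lowest in vivo array was numbered 1 in all 8 tested probes, beside 31.7% of all tested probes. WT1-high arrays 8 and 29 were the highest pair in vivo in 5 of 8 probes, beside 10.3% of all tested probes. Among the cultured arrays, 11 was the lowest in 5 of 8 probes, beside 39.7% of all tested probes, and Trf was highest there. Leaving out both in vivo arrays numbered 1, chosen after these values were seen, raised the Ttr difference of WT1-high over WT1-negative cells to 4.57 (limma, Benjamini-Hochberg adjusted p = 1.8e-05). Differences of WT1-high over WT1-intermediate cells were still not called (Ttr 0.60, Apoa1 0.97; limma adjusted p = 0.63 and 0.24).

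Levels of Apoa1, Apoa2, Ttr and Ahsg moved together from array to array. Over the 6 in vivo arrays Pearson's r was 0.98 between Apoa1 and either Apoa2 probe, 0.89 between Apoa1 and Ttr and 0.99 between Apoa1 and Ahsg probe ILMN_2993745. Trf was apart, with r of 0.37 with Apoa1 and 0.07 with Ttr, and Ambp had 0.67 with Apoa1. Over all 9 arrays Ambp had r of 0.19 with Apoa1. These are descriptions over few arrays that share animals and normalisation.

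The genes most like the mean of the 9 members over 9 arrays were Serpina1b (r = 0.996), Serpina1d (0.993), Mup3 (0.976), Apoc3 (0.974), Xpo4 (0.973), Tmem184c (0.973), Mfsd7a (0.972), Fgg (0.968), 620807 (0.967) and Rbp4 (0.967). Serpina1 genes code for alpha-1-antitrypsin and Mup genes for major urinary proteins, and the near-identical members of these families can share probe signal, so their separate values are uncertain. Over the 6 in vivo arrays the leading genes were Fgg (0.998), Serpina1b (0.996), Map1lc3b (0.993), Es1 (0.99), Hpx (0.99), Serpina1d (0.989), F2 (0.988), Fbxl10 (0.987), Cep55 (0.987) and Dnajc18 (0.986). Map1lc3b spanned only 0.33 on the log2 scale in vivo and Fbxl10 0.23, compared with 2.48 for Fgg.

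The promoters of Apoa1, Apoa2 and Ahsg, each called higher by at least 1 probe in both liver groups, are shown over the 250 bases before the gene start, 5′ to 3′ on the strand of the gene, from RefSeq (GRCm38.p6). Capitals mark matches to the motifs searched on both strands. These were TGTTTAC for FOXA, AAAGTCC for HNF4 and TATAAA for the TATA box.
Apoa1, chr9:46228380-46228629, plus strand: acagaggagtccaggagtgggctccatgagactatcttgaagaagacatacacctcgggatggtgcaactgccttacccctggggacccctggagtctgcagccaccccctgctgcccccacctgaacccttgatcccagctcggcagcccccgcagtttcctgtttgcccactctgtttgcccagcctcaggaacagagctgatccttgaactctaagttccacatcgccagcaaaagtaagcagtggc
Apoa2, chr1:171221314-171221563, plus strand: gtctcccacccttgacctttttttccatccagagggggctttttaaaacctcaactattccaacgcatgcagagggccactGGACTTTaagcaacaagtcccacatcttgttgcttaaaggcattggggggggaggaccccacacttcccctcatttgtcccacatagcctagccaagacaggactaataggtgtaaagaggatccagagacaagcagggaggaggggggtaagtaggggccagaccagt
Ahsg, chr16:22891765-22892014, plus strand: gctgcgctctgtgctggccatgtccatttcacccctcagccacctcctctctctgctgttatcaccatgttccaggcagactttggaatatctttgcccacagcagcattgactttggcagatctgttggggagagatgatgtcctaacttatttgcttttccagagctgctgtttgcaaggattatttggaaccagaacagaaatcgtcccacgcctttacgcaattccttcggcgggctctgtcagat
Promoter windows were matched for 7 of the 9 genes, Ttr and Trf being named only. Apoa2 held AAAGTCC on the opposite strand, Fabp1 held TATAAA, and Apoa1, Ahsg, Ambp, Alb and Fgb held none of the motifs searched. GTTAAT, a motif of the liver-enriched factor HNF1, was not among those searched. It is present in the windows of Alb and Fabp1, and on the opposite strand in that of Fgb. Its share among all windows was not counted, so its presence there was not tested. Of 32851 windows of this length, 3.17% held TGTTTAC, 3.58% AAAGTCC and 12.4% TATAAA. The matches did not overlap each other.

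Among other secreted hepatocyte proteins more genes were called higher than lower in vivo, as in the list of 9. Of 40 such genes, 33 passed the filter, with the Serpina1 and Mup genes counted separately although they can share probe signal. Of these, against WT1-negative cells, 17 were called higher and 2 lower for the WT1-high group, and 11 higher and 2 lower for the WT1-intermediate group. Of all tested probes, 26.5% were called higher and 33.1% lower for the WT1-high group, and 24.5% and 33.5% for the WT1-intermediate group. Their median differences were 1.49 and 0.94 (1.27 and 0.82 with genes undetected in the dimmer group at their bounds), beside -0.10 and -0.13 over all tested probes. Hp, which codes for the hemoglobin carrier haptoglobin, averaged 10.01 ± 0.79 on the WT1-high arrays, 10.44 ± 0.19 on the WT1-intermediate arrays and 6.76 ± 0.05 on those from culture (log2 level, SD, n = 3). Its differences from WT1-negative cells were 3.25 and 3.67 (limma, Benjamini-Hochberg adjusted p = 5.1e-06 and 2.5e-06). Cp, which codes for the copper-carrying ferroxidase ceruloplasmin, was higher by 2.14 and 1.75 (limma, Benjamini-Hochberg adjusted p = 8.7e-05 and 0.00041).

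Apoc2, which codes for the activator of lipoprotein lipase and is also made by macrophages, moved the other way. Against WT1-negative cells it was lower in both liver groups (differences of -2.52 and -1.13 for the WT1-high and WT1-intermediate groups, limma, Benjamini-Hochberg adjusted p = 0.00015 and 0.023). Between the WT1-positive populations 1 of the 33 secreted genes was called, beside 3.56% of all tested probes. It was F10 (coagulation factor X), lower in WT1-high cells by 1.94 (difference -1.94, limma, Benjamini-Hochberg adjusted p = 0.017). This call was lost under median scaling, without background correction, without a filter, with the compared groups alone, and without WT1-high array 8 or 29. With replicate blocks, calls over all 4 lists of other hepatocyte genes went from 0 higher and 1 lower to 6 higher and 3 lower (fixed replicate block, 29 with 30), 0 higher and 4 lower (fixed, numbers 1 and 8) or 2 higher and 4 lower (random replicate block). Without WT1-high array 1 they were 3 higher and 1 lower, and without WT1-intermediate array 30 they were 0 higher and 3 lower. Of 9 macrophage markers tested, 8 were called lower for WT1-high against WT1-intermediate cells, beside 2.66% of all tested probes. For WT1-high cells against culture 7 were called lower and 1 higher (Clec4f, undetected in culture), beside 33.1% and 26.5%. For WT1-intermediate cells against culture 4 were called lower and 2 higher, while F10 was called higher there (1.06, limma adjusted p = 0.029). Their part in the Apoc2 and F10 results was not tested.

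**Figure D4:**
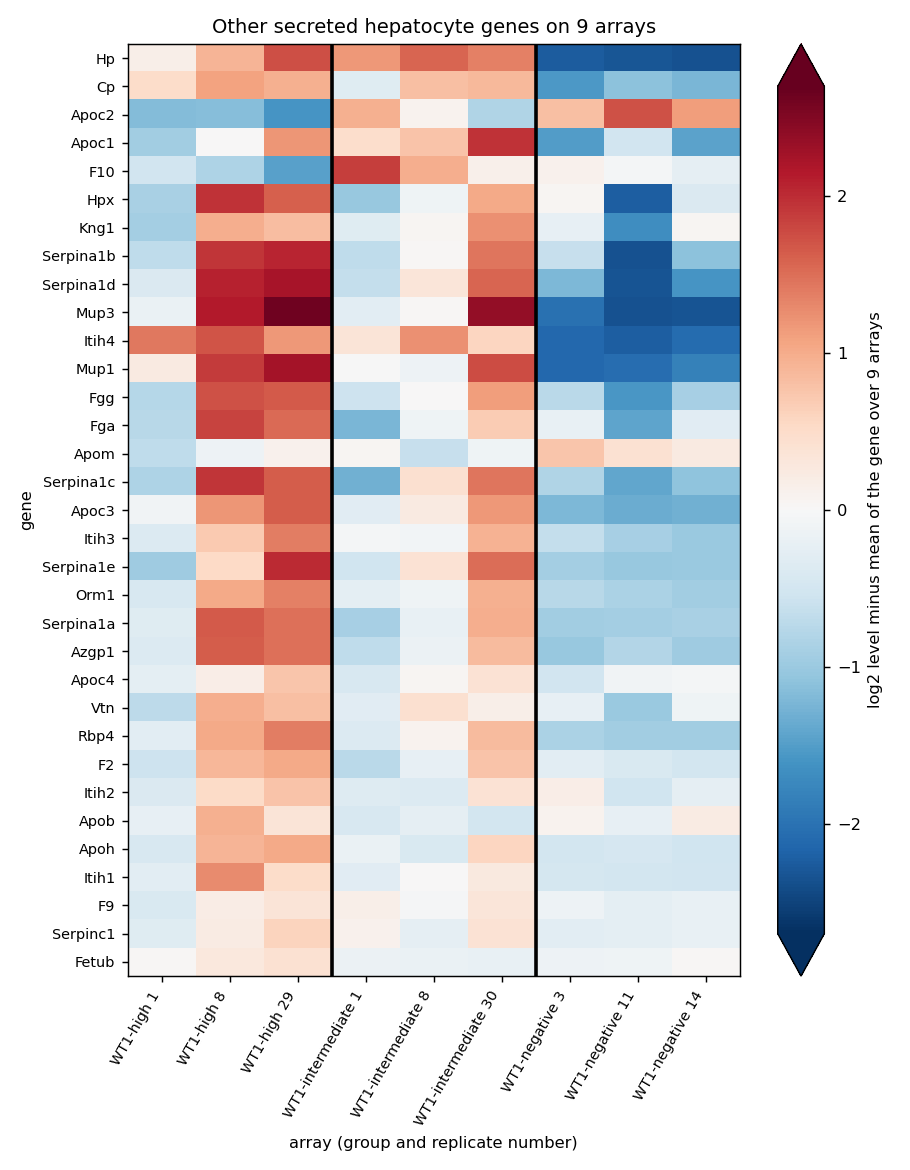
Log2 level of the 33 tested secreted hepatocyte genes outside the list of 9, minus each gene's mean over 9 arrays, with genes ordered by mean level and black lines between groups. WT1-high arrays 8 and 29 and WT1-intermediate array 30 are red in most rows, Apoc2 is red in the WT1-negative arrays, and F10 is red in WT1-intermediate array 1.

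Of 26 metabolic enzyme genes 13 passed the filter. Against WT1-negative cells 6 of them were called higher and 1 lower for the WT1-high group, and 5 higher and 2 lower for the WT1-intermediate group. All tested probes gave 26.5% higher and 33.1% lower for the WT1-high group, and 24.5% and 33.5% for the WT1-intermediate group. The enzyme medians were 0.49 and 0.34 (0.13 and 0.19 with undetected groups at their bounds), beside -0.10 and -0.13 over all tested probes. The 3 genes of highest mean signal, Hal, Ass1 and Adh1, were not called in any comparison. Of 8 surface proteins only Tfr2 and Asgr1 passed. Both were called higher for WT1-high cells against culture (0.60 and 0.68, limma, Benjamini-Hochberg adjusted p = 0.023 and 0.0056), as were 26.5% of all tested probes. The bile acid transporter Slc10a1 was detected on no array.

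Of 12 liver-enriched transcription factor genes, 11 were on the array and 5 passed the filter, and none was higher in vivo. Cebpa was detected on no WT1-high array and was at least 3.2-fold lower there than in culture, and it was lower in WT1-intermediate cells by 1.10 (difference -1.10; limma, Benjamini-Hochberg adjusted p = 4.4e-05 and 0.0014). Hnf4a was lower in WT1-high cells (-0.60) and, undetected on the WT1-intermediate arrays, at least 1.68-fold lower there (adjusted p = 0.011 and 0.00085, limma). Foxa1, also undetected on those arrays, was at least 1.64-fold lower (limma adjusted p = 0.025) and not called in WT1-high cells (-0.36, adjusted p = 0.37). On the in vivo arrays Cebpa reached at most 5.48 and Hnf4a at most 4.87, so these differences rest on signals near background.

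Summed levels of the 8 listed plasma protein genes without Trf were 607 to 2634 in WT1-high, 913 to 2270 in WT1-intermediate and 220 to 815 in WT1-negative arrays. Other secreted hepatocyte genes summed to 3055 to 8253, 4273 to 7111 and 2166 to 2294, with 26 to 36, 28 to 31 and 13 to 20 of 40 detected. Erythroid markers, 6 genes that could trace blood, had 0 to 3 detected in vivo and 0 in culture. The macrophage and mesothelial sums given above also differed between the groups, and the part of any of these lists in the plasma protein results was not tested.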

How the data were processed

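Total RNA from 9 sorted samples was amplified, labelled and hybridised to Illumina MouseWG-6 v2.0 arrays, 1 array per sample. From BeadStudio the authors exported raw intensity values for every probe, on a linear scale and with neither step of correction. The authors also deposited a detection p-value for each probe and array. Symbols and probe sequences are those of the deposited tables. Intensities of WT1-intermediate array 30 were read from the deposited joined table, which matched the per-probe tables on the 8 other arrays (largest difference 0). Its detection p-values and negative controls stood in a column numbered 29, assigned to it because no other array of that group lacked one. Detection p recomputed from these differed by at most 0.0011. Columns of other samples numbered 0.

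With limma 3.58.1 in R 4.3.3, all arrays were processed by neqc (background from 936 negative control probes, quantile normalisation, log2, offset 16), after the authors' outline. A probe needed a detection p below 0.05 on 3 or more arrays, a filter of this work, and 20573 entered a linear model of the 3 groups (6 residual and 5.19 prior degrees of freedom). Tests are limma's moderated two-sided tests, with Benjamini-Hochberg adjustment over all probes tested in a comparison, and probes below 0.05 are called. Number of arrays limits precision. Where the dimmer group had no detected array, the fold is a lower bound against the lowest detected signal of each of its arrays.

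All probes of the 9 genes are named. Of other hepatocyte lists, 1 probe per gene was used (highest mean), and the 3 genes of highest mean, those called between the liver groups and the 10 genes most correlated with the members are named; for surface and factor genes those that were called or undetected are named too, chosen after their values were seen, as were Fga, Fgg and the low-GC probes. Members and lists were chosen with earlier results of these data known. Promoters and positions are from RefSeq tables of GRCm38.p6. Figures and sequences were handled in Python 3.11.15.

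The in vivo arrays came from 3 animals according to the study. Their label numbers pair the arrays numbered 1 and those numbered 8, whereas 29 and 30 were paired by assumption. Across probes, deviations from the group mean correlated at 0.35 between arrays numbered 1, 0.34 between those numbered 8 and 0.47 between 29 and 30, and at -0.39 to 0.03 in other combinations. Deviations of the 3 arrays in a group cancel out, so the value for 29 and 30 follows from those of the other arrays. It is no separate evidence for their pairing. The study states no block, and blocks were run as alternatives, beside other normalisations, no background correction, offset 50, no filter, fits of 2 groups and leaving out arrays.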

Additional observations from a re-analysis of the deposited data

How the results depend on the processing

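Of 424 tests of single probes under other settings, 382 kept their direction and side of the threshold. Between the liver groups no gene of the list was called except Trf, the 1 gene called under median scaling (difference 1.36), the fixed replicate block with 29 and 30 paired (0.81) and the random replicate block (0.86), while the fixed replicate block on numbers 1 and 8 called 0 genes (Trf difference 0.99, adjusted p = 0.055, limma). With blocks no other call on a listed gene changed. Probes called in that comparison went from 733 to 2631 under median scaling, 459 without background correction, 335 without a filter, 339 with the compared groups alone, 1655 and 1749 with the fixed and random replicate block, and 299 without both in vivo arrays numbered 1. Leaving out each array in turn gave 325 to 865 probes and 0 genes of the list. Under median scaling the median of all probes moved from 0.05 to 0.45 in that comparison and from -0.13 to -0.44 for WT1-intermediate against WT1-negative cells, and the share of calls lower in the first group went from 74.6% to 4.6% and from 57.8% to 76.9%. Genes of the list called in WT1-intermediate against WT1-negative cells fell from 4 to 2 without background correction, where Apoa1 and Ahsg were lost, and ranged from 3 to 4 with each array left out, as did WT1-high against WT1-negative from 4 to 5. In the latter, Trf was also lost under median scaling, without a filter and without both in vivo arrays numbered 1. In every alternative Ttr, both Apoa2 probes and, in WT1-high cells, Apoa1 and Ahsg probe ILMN_2993745 stayed called against WT1-negative cells. Uncalled differences that turned sign were those of Ambp, Ttr and Trf. Ambp gave 0.53 (high against intermediate) and -0.68 (intermediate against negative) under median scaling, -0.06 without background correction, -0.01 with offset 50, and 0.39 (high against intermediate) and 0.42 (high against negative) without both arrays numbered 1, where Trf gave 0.01 (intermediate against negative). With single arrays left out, Ambp ranged from -0.53 to 0.35 for WT1-high against WT1-intermediate, -1.06 to 0.43 for WT1-high against WT1-negative and -0.89 to 0.59 for WT1-intermediate against WT1-negative cells. Ttr ranged from -0.45 to 0.91 between the liver groups, and Trf from -0.36 to 0.01 for WT1-intermediate against WT1-negative cells. The cause was not tested. Signals near background, as for Apoa1 and Apoa2 in culture, give differences that shrink with a larger offset.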
